A study of Homo sapiens with 12 samples.

Results

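Interferon-stimulated genes (ISGs) are the genes that cells switch on in answer to interferons, and 43 of them, taken by gene symbol from a list of well-known ISGs, were described in HK-2 cells, out of 58735 genes in the count table. HK-2 is an established human line of renal proximal tubular epithelium, immortalised with viral oncogenes. The 12 samples formed 4 groups of 3: a control group given water (H2O) and 3 groups given a drug for 48 h. The drugs were the radiographic contrast agent iohexol at 75 mg I/mL, the platinum-based anticancer drug cisplatin at 5 μM, and the antibiotic vancomycin at 4 mM. All groups were grown in the same medium with serum and antibiotics, and the labels give no time for the water. The study compared the 3 drugs as models of drug-induced kidney injury in cells, and here the ISGs of every drug group are set against those of the water-treated cells. Whether the 3 samples of a group came from separate cultures is not stated, so the p-values measure only the spread between these samples.

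An infected cell detects foreign RNA or DNA with sensors such as RIG-I and MDA5 and secretes type I or III interferon. Interferon binds its receptor on the same or on neighbouring cells, the kinases JAK1 and TYK2 are activated, and a complex that holds STAT2 and IRF9 moves to the nucleus and binds the interferon-stimulated response element (ISRE) in front of ISGs. The products of these genes detect, bind or degrade viral RNA, block the entry or release of virions, and modify proteins with ISG15, and several of them, STAT2, IRF7 and IRF9 among them, feed back on the pathway.

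The element that defines this response can be read directly in the DNA. The stretch from 250 bases before to 50 bases after the start was found for 33 of the 43 ISGs among the RefSeq promoters of GRCh38.p14, and not for DDX58, DHX58, IRF7, IFIT2, OAS2, OASL, MX2, IFITM2, USP18 and TRIM22. The ISRE letters GAAANNGAAA, on either strand (TTTCNNTTTC on the other), occurred in 23 of these 33 promoters (69.7%) and in 3.57% of all 35116 promoters. The letters of the interferon gamma activated site, TTCNNNGAA, occurred in 11 (33.3%) and in 7.66% of all. Matches of these motifs can overlap one another, as 2 ISRE matches do in front of ISG15. The following stretches, 40 bases each and written 5′ to 3′ on the strand of the gene, show the element in front of 6 ISGs that were up-regulated by vancomycin and of 3 that passed no test with vancomycin. Capitals mark the ISRE match, whose first base lay at position -107 from the start in ISG15, -69 in ISG20, -94 in IFIT3, -145 in RSAD2, -115 in IFI6, -130 in BST2, -45 in IFIT5, -136 in SAMD9 and -143 in OAS3.
ISG15 (chr1:1013375-1013414, plus strand): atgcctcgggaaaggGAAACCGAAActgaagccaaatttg
ISG20 (chr15:88638932-88638971, plus strand): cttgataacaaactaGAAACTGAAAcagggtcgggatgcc
IFIT3 (chr10:89332420-89332459, plus strand): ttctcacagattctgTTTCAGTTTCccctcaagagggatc
RSAD2 (chr2:6877617-6877656, plus strand): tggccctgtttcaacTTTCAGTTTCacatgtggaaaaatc
IFI6 (chr1:27672283-27672322, minus strand): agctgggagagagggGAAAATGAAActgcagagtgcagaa
BST2 (chr19:17405736-17405775, minus strand): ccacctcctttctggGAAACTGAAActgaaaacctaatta
IFIT5 (chr10:89414508-89414547, plus strand): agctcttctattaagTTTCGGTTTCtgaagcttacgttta
SAMD9 (chr7:93118091-93118130, minus strand): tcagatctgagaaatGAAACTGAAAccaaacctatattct
OAS3 (chr12:112938316-112938355, plus strand): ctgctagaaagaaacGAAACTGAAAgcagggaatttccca
The letters alone did not separate the genes by their response. Of the 27 ISGs with a promoter that were up-regulated by vancomycin, 18 held the ISRE letters, and so did all 5 that were tested with vancomycin and not called, which were IFIT5, OAS3, PARP9, DTX3L and SAMD9. STAT2, IRF9, OAS1 and SAMD9L were up-regulated more than 2-fold without these letters in the window.

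With vancomycin, the ISGs rose as a group. Vancomycin up-regulated 35 of the 43 ISGs (81.4%) by edgeR's quasi-likelihood test at an adjusted p under 0.05 (Benjamini-Hochberg over all genes tested), where 29.0% of all 15819 genes tested were up-regulated. Differentially expressed genes (DEGs), with a log2 fold change beyond 1 or -1 as well, were 25 up-regulated ISGs (58.1%), against 10.8% of all genes. Among these 25, IFITM2, TRIM22 and EPSTI1 passed the filter on low counts only through the vancomycin samples, where they were high. In this and the next paragraph, percentages of ISGs are of all 43, tested or not. Percentages of all genes are of those tested. Vancomycin down-regulated 0 ISGs, against 28.8% of all genes called lower and 7.65% lower as DEGs. The count of 0 stayed at 0 at an unadjusted p under 0.05, with DESeq2 and with limma-voom. In a bulk sample, fewer cells with the transcript and less of it per cell cannot be told apart.

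Iohexol up-regulated 12 ISGs (27.9%), where 11.2% of all genes were higher, and down-regulated 3, where 9.77% were lower. The DEGs among them were IFIT2, ISG20 and TRIM22, all higher, against 4.02% of all genes higher as DEGs and 1.25% lower. TRIM22 passed the filter on low counts only through the iohexol samples, where it was high. Without iohexol replicate 3, DHX58, DTX3L, EPSTI1, IFI44L, IFI6, IRF7 and OAS1 were called as well (adjusted p 0.0149 to 0.0489), and so was IFITM1 without iohexol replicate 2 (adjusted p = 0.0339). Cisplatin up-regulated 14 ISGs (32.6%) and down-regulated 7 (16.3%), and 37 of the 43 could be tested with it. Of all genes tested, 29.2% were higher and 30.6% lower. The share called higher was thus not far above that of all genes, and the share called lower was under it. The DEGs with cisplatin were 5 higher and 3 lower, against 7.62% and 8.72% of all genes. With library size alone as the scaling, the ISGs called higher and lower were 14 and 1 with iohexol and 17 and 3 with cisplatin. This scaling shifts the log2 fold changes. For instance, IRF1 went from -0.44 to -0.37 with iohexol, IFI44 from -0.30 to -0.08 with cisplatin and USP18 from 0.43 to 0.36 with vancomycin. The 3 comparisons share the control samples, so they are not independent.

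The median log2 fold change over the ISGs that could be tested was 1.37 with vancomycin (40 genes), 0.35 with iohexol (39 genes) and 0.07 with cisplatin (37 genes), and that over all genes tested was -0.01, 0.01 and 0.01. Over all 43 ISGs, tested or not, the median difference in log2 CPM (CPM, counts scaled to library size and composition, with a prior count of 2) from the control mean was 1.38, 1.53 and 1.43 in the 3 vancomycin samples. It was 0.27, 0.32 and 0.25 in the iohexol samples and 0.00, 0.02 and 0.14 in the cisplatin samples, while the median over 17073 genes was at most 0.0433 in any sample. The vancomycin samples therefore stood above all others in this median, as the heatmap of the 43 genes shows. As a share of all counts, the 43 genes together held 895 to 903 ppm of the total in the control group. This share was 1818 to 1918 ppm under vancomycin, 1169 to 1193 ppm under cisplatin and 1066 to 1097 ppm under iohexol.

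**Figure D1:**
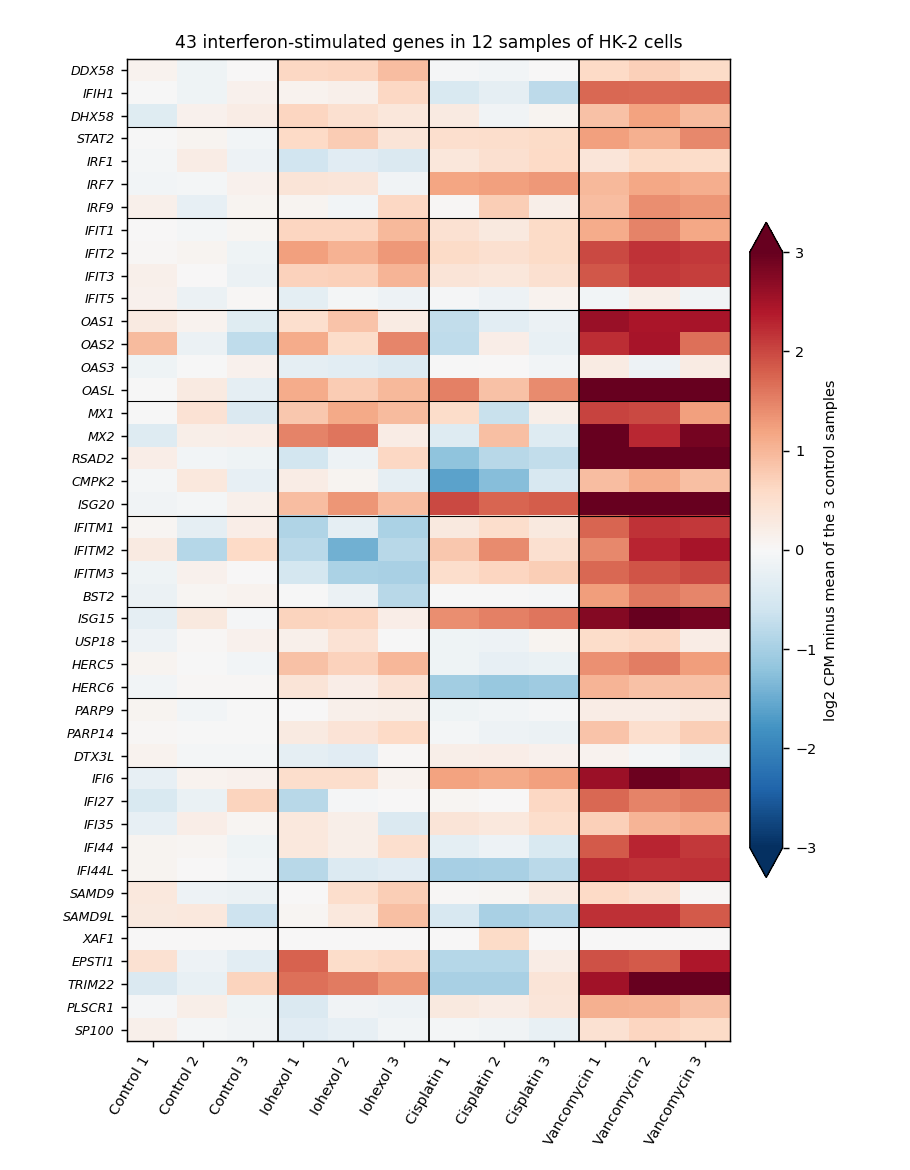
Log2 CPM of the 43 ISGs (rows, grouped by role, lines between roles) in the 12 samples (columns), minus the mean of the 3 control samples; red is higher and blue lower than the control mean, and the colours do not deepen beyond 3 and -3. The 3 vancomycin columns are red in most rows, while the cisplatin columns hold red rows such as ISG20 and ISG15 and blue rows such as HERC6 and CMPK2.

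Between the groups, 37 of the 43 ISGs had their highest mean with vancomycin, 3 with cisplatin (IRF7, DTX3L and, by 1 count, XAF1), 2 with iohexol (DDX58 and SAMD9) and 1 in the control group (IFIT5). The share of all genes with their highest mean under vancomycin was not counted. The 37 include OAS2 and MX2, which were too low to be tested. All 3 vancomycin samples lay above the other 9 samples for 33 ISGs, of which 31 were among the 40 that passed the filter on low counts in the fit of all samples, and the same held for 19.3% of all 17073 genes in that fit. Against the control samples alone, the vancomycin samples were all higher for 38 ISGs, all lower for 0 and overlapped for 5. Of the 40 ISGs tested with vancomycin, 36 were all higher, where 33.9% of all genes tested were all higher and 29.3% all lower. The iohexol samples were all above the control samples for 16 ISGs and all below for 4. Of the 39 tested these were 15 (38.5%) and 4 (10.3%), where 18.6% of all genes tested were all above and 19.4% all below. The cisplatin samples were all above for 15 and all below for 8, which is 40.5% and 21.6% of the 37 tested, where 32.6% and 32.5% of all genes tested were.

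**Figure D2:**
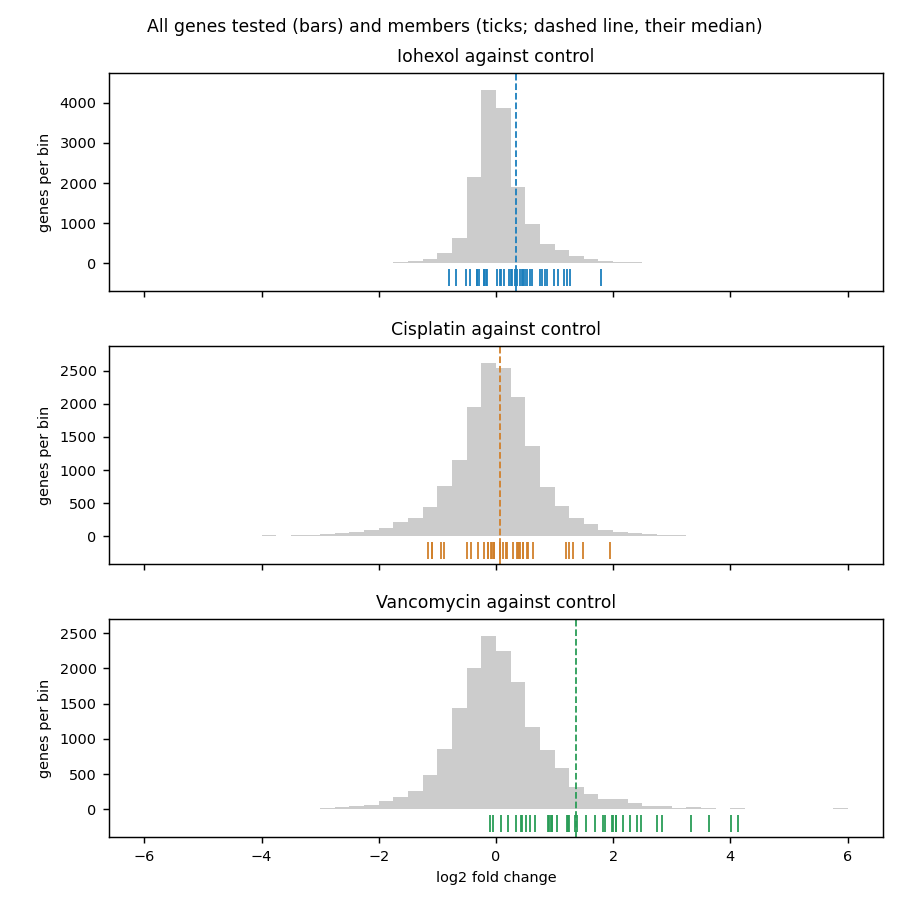
Number of genes per bin of log2 fold change (grey bars, all genes tested; values beyond 6 or -6 are in the outermost bins) for each drug against the control group, with the tested ISGs as ticks under the axis and their median as a dashed line. The ticks lie to the right of most genes with vancomycin (median 1.37) and spread to both sides of 0 with cisplatin (median 0.07).

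Compared by length, in FPKM (CPM divided by the gene length in kilobases, from the deposited lengths), the most abundant ISGs of the control group were BST2 at 94.3 ± 9.48, ISG15 at 34.5 ± 6.96, DTX3L at 17.8 ± 1.27 and PARP14 at 14.0 ± 0.364 (mean ± SD, n = 3). Behind them IFITM3 at 10.8 ± 0.916, OAS3 at 10.2 ± 0.907, PLSCR1 at 9.87 ± 1.08, IFIT3 at 9.46 ± 1.09 and IFI6 at 9.11 ± 1.28 followed in this order, each differing from the next by less than its spread. With vancomycin, BST2 at 255 ± 29.2 and ISG15 at 254 ± 27.2 no longer differed beyond their spread. IFI6 followed at 63.4 ± 8.19, ahead of IFITM3 at 39.5 ± 3.36, IFIT3 at 38.5 ± 3.42 and IFI44 at 28.8 ± 4.48.

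**Figure D3:**
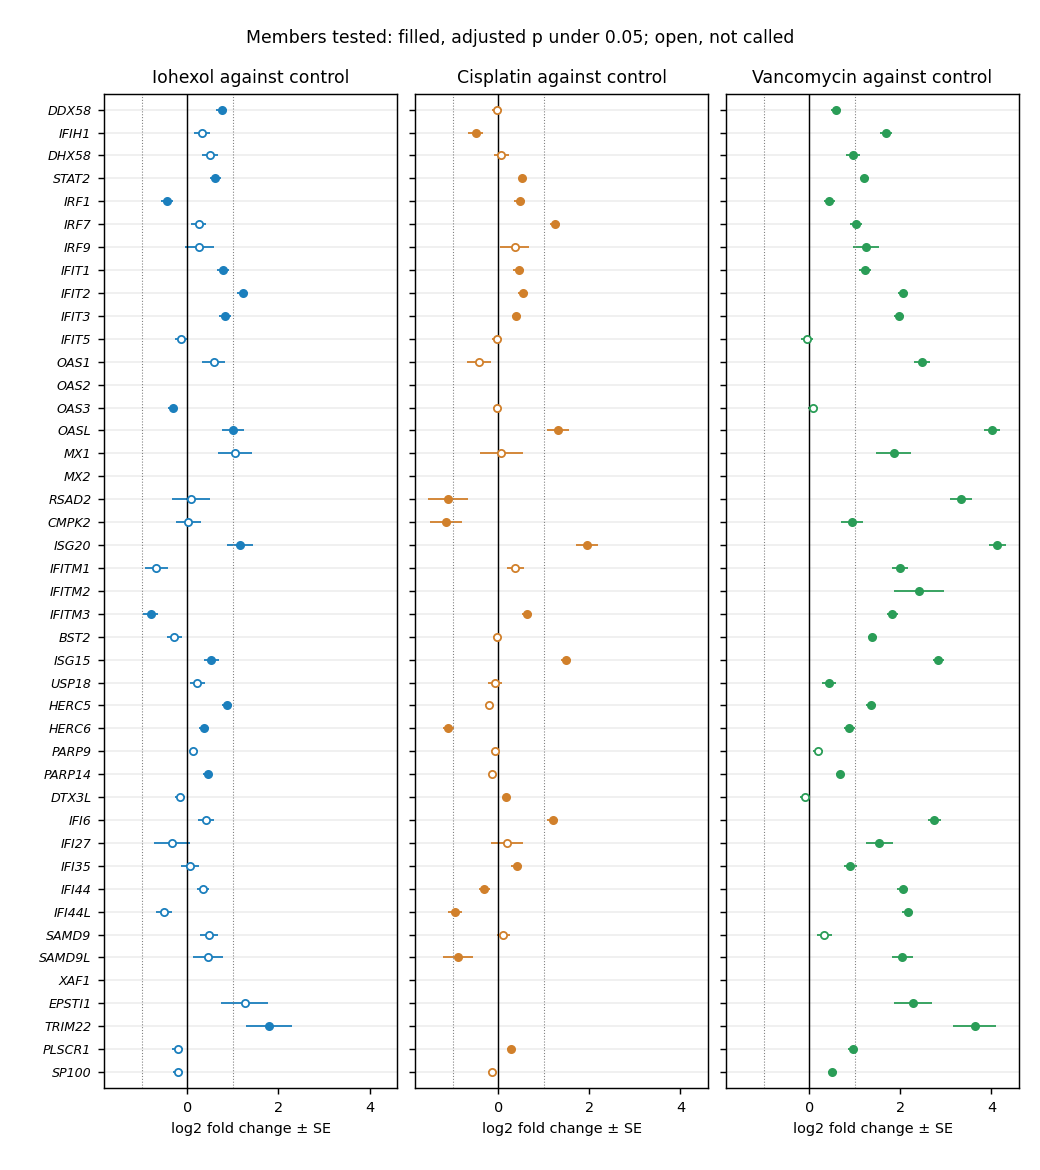
Log2 fold change ± SE of each ISG tested, for each drug against the control group (3 samples each); filled points have an adjusted p under 0.05, open points do not, and dotted lines mark 1 and -1. With vancomycin 35 points are filled and right of 0; with cisplatin 14 filled points lie right and 7 left of 0.

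The RNA sensors came first. All 3 were up-regulated by vancomycin. IFIH1 encodes MDA5, which detects long double-stranded RNA. Its CPM were 8.42, 7.65 and 9.27 in the control samples and 28.0, 27.8 and 28.3 with vancomycin, 9.05, 9.34 and 13.1 with iohexol and 6.12, 7.02 and 4.84 with cisplatin. The vancomycin samples lay above and the cisplatin samples below all others. Against the control group IFIH1 rose by 1.69 ± 0.13 (log2 fold change ± SE; adjusted p = 8.81e-11) with vancomycin and fell by 0.50 on the log2 scale (SE 0.16, adjusted p = 0.0144) with cisplatin. The decrease was no longer called without cisplatin replicate 3, and the adjusted p was 0.00885 to 0.0924 over the 6 samples left out. DDX58 encodes RIG-I, the sensor of RNA with a 5′ triphosphate. Its CPM were 23.4, 19.8 and 22.0 in the control group, 33.5, 34.0 and 41.0 with iohexol, 21.3, 20.5 and 22.0 with cisplatin and 32.9, 35.7 and 32.5 with vancomycin. Both iohexol and vancomycin raised it without overlap, by 0.75 ± 0.12 (adjusted p = 0.00122) and 0.59 ± 0.11 (adjusted p = 0.000104), and the difference between them was not called (log2 difference -0.10 ± 0.10). DHX58, which encodes the related regulator LGP2, was called with vancomycin alone among the 3 tests (0.96 ± 0.16, adjusted p = 1.46e-05). Its iohexol samples also lay above all control samples (0.50 ± 0.17, adjusted p = 0.0608). That value was called in the fit of all 4 groups (adjusted p = 0.036) and without iohexol replicate 3 (adjusted p = 0.0149).

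Of the 4 transcription factors, vancomycin up-regulated all 4, iohexol raised STAT2 and lowered IRF1, and cisplatin raised STAT2, IRF1 and IRF7. STAT2, the subunit that carries the activating domain of the interferon complex, had CPM of 36.6, 39.3 and 34.9 in the control samples, 56.2, 63.0 and 48.0 with iohexol, 52.1, 52.9 and 54.8 with cisplatin and 87.0, 77.6 and 99.9 with vancomycin. All 9 drug samples were above the control samples. The log2 fold changes were 0.61 ± 0.12 (adjusted p = 0.00351), 0.53 ± 0.08 (adjusted p = 1.73e-05) and 1.21 ± 0.11 (adjusted p = 1.08e-09). IRF7, the factor that amplifies interferon production, went from 9.87, 9.98 and 11.4 CPM in the control samples to 23.9, 24.7 and 25.7 with cisplatin and 20.5, 23.4 and 22.4 with vancomycin, and was 13.7, 13.4 and 9.62 with iohexol. Cisplatin raised it by 1.25 ± 0.11 (adjusted p = 3.02e-08) and vancomycin by 1.04 ± 0.13 (adjusted p = 3.23e-07), and the log2 difference of vancomycin to cisplatin, -0.17 ± 0.12, was not called.

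IRF1, a factor that also answers to interferon gamma and to inflammatory signals, moved in opposite directions. Its means were 22.6 ± 3.26 CPM in the control group, 16.4 ± 1.26 with iohexol, 31.3 ± 2.81 with cisplatin and 31.7 ± 2.62 with vancomycin (mean ± SD, n = 3). The decrease with iohexol (-0.44 ± 0.14, adjusted p = 0.0377) was not called without control replicate 1 or 2 or iohexol replicate 1 or 2 (adjusted p 0.0233 to 0.191 over the 6 samples left out). The increases with cisplatin (0.47 ± 0.11) and vancomycin (0.44 ± 0.12) were called. IRF1 overlaps C5orf56 on the opposite strand over 22.0% of its exon bases, and the library kit does not mark strand, so reads there cannot be told apart. IRF9, the DNA-binding subunit of the complex, had 21, 18 and 22 counts in the control samples and 43, 56 and 58 with vancomycin, without overlap (1.25 ± 0.29, adjusted p = 0.000848). Since 69.2% of its 31-base sequences also occur in another gene, mostly the read-through transcript AL136295.5, its level is uncertain.

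The IFIT proteins bind viral RNA that lacks the cap of cellular mRNA. IFIT1, IFIT2 and IFIT3 were up-regulated by all 3 drugs, and IFIT5 by none. IFIT2 had CPM of 16.2, 16.8 and 14.4 in the control samples, 37.0, 32.7 and 39.0 with iohexol, 23.4, 22.0 and 23.6 with cisplatin and 62.4, 71.4 and 69.3 with vancomycin. The 4 groups did not overlap. Its log2 fold changes were 1.21 ± 0.12 with iohexol (adjusted p = 2.9e-05), 0.54 ± 0.10 with cisplatin (adjusted p = 0.000257) and 2.06 ± 0.11 with vancomycin (adjusted p = 1.92e-13). IFIT3, the partner that stabilises IFIT1, had 27.7, 25.2 and 22.0 CPM in the control group, 40.1, 41.1 and 50.7 with iohexol, 32.4, 31.6 and 34.7 with cisplatin and 91.3, 108 and 105 with vancomycin. The order of the groups was the same and again without overlap, and the increase with vancomycin was 1.98 ± 0.11 (adjusted p = 2.28e-13). IFIT1 went from 11.0, 10.6 and 11.4 CPM to 23.9, 31.2 and 24.9 with vancomycin (1.23 ± 0.13, adjusted p = 2.58e-08). IFIT5 lies next to IFIT1 on chromosome 10, 8100 bases away. Its CPM of 22.3, 18.1 and 21.0 in the control group and 19.3, 23.0 and 18.8 with vancomycin overlapped, and its log2 fold change was -0.05 ± 0.13.

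**Figure D4:**
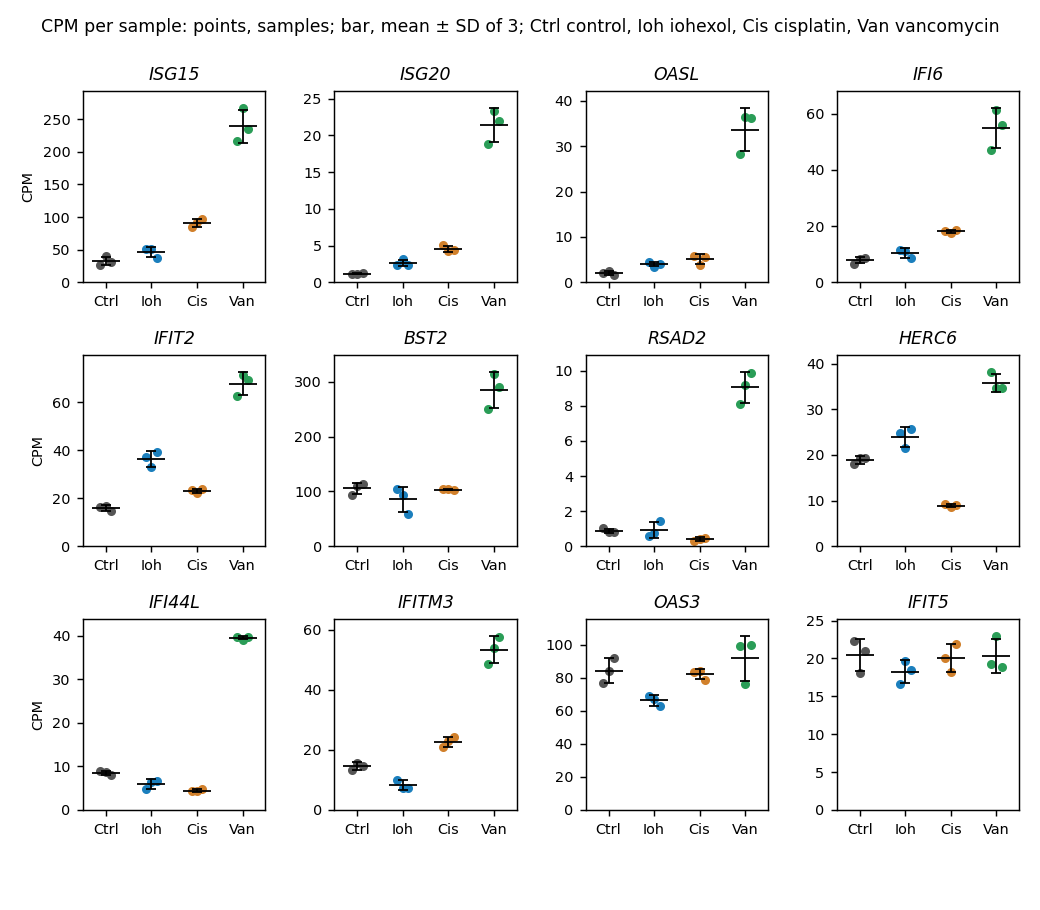
CPM of 12 ISGs in each of the 12 samples (points), with mean ± SD of the 3 samples of a group (horizontal bar and whiskers); axes start at 0 and differ between panels. ISG15, ISG20, OASL, IFI6 and IFIT2 were above the control mean in every drug group; RSAD2, HERC6 and IFI44L were lower with cisplatin and higher with vancomycin; OAS3 and IFIT5 overlapped between the control and vancomycin groups.

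Among the OAS proteins, which sense double-stranded RNA and activate the ribonuclease RNase L, the response was uneven. OASL, the member without this enzymatic activity, had CPM of 1.96, 2.45 and 1.64 in the control samples, 4.49, 3.45 and 4.01 with iohexol, 5.88, 3.75 and 5.49 with cisplatin and 28.3, 36.5 and 36.3 with vancomycin. Every drug sample was above the control samples, and the vancomycin samples were far above the rest. The log2 fold changes were 0.99 ± 0.24 with iohexol (adjusted p = 0.0128), 1.31 ± 0.24 with cisplatin (adjusted p = 0.000154) and 4.01 ± 0.17 with vancomycin (adjusted p = 3.34e-15). The iohexol call was lost without control replicate 3 or iohexol replicate 1 (adjusted p 0.0123 to 0.0558 over the 6 samples left out). OAS1 had 3.63, 3.26 and 2.30 CPM in the control samples and 18.6, 17.0 and 17.2 with vancomycin, a rise of 2.48 ± 0.18 (adjusted p = 2.19e-11). Its iohexol and cisplatin tests were not called (0.58 ± 0.25 and -0.43 ± 0.26).

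OAS3 had the most counts of the OAS genes and did not follow OAS1. Its CPM were 76.9, 83.9 and 91.9 in the control samples, 69.2, 67.3 and 62.9 with iohexol, 83.4, 84.3 and 78.9 with cisplatin and 99.0, 76.0 and 100.04 with vancomycin. The iohexol samples were below all others, by -0.32 ± 0.10 on the log2 scale (adjusted p = 0.0349), a call lost without control replicate 2 or 3 or iohexol replicate 1 or 2 (adjusted p 0.0264 to 0.13). The vancomycin samples overlapped the control samples (0.08 ± 0.11). OAS2 was too low to be tested, with 4, 1 and 0 counts in the control samples and 14, 16 and 9 with vancomycin.

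The next role joins the MX GTPases, RSAD2, CMPK2 and the exonuclease ISG20. ISG20 degrades single-stranded RNA. It had 1.09, 1.13 and 1.32 CPM in the control samples, 2.35, 3.13 and 2.34 with iohexol, 5.03, 4.25 and 4.43 with cisplatin and 18.8, 23.4 and 21.9 with vancomycin. The 4 groups stood apart, and the log2 fold changes were 1.16 ± 0.29 (adjusted p = 0.014), 1.95 ± 0.24 (adjusted p = 2.16e-06) and 4.13 ± 0.19 (adjusted p = 1.09e-14), the last being the largest of the ISGs tested with vancomycin. The call with iohexol was lost without control replicate 2 or iohexol replicate 2 (adjusted p 0.00907 to 0.0731). MX1 encodes a GTPase that traps viral nucleoproteins. It had 9, 15 and 7 counts in the control samples and 49, 44 and 28 with vancomycin, all above the controls (1.85 ± 0.38, adjusted p = 0.000223). MX2 had 0, 1 and 1 counts in the control samples and 24, 10 and 18 with vancomycin. It was not tested, and the ratio of its summed counts per depth, 24.8, had a 95% exact interval of 6.54 to 211 that covers counting error only.

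RSAD2 encodes viperin, which makes a nucleotide that stops viral RNA synthesis, and CMPK2, its neighbour on chromosome 2, encodes a mitochondrial nucleotide kinase. Counts of RSAD2 were 14, 13 and 12 in the control samples, 8, 12 and 21 with iohexol, 5, 7 and 8 with cisplatin and 130, 136 and 160 with vancomycin. The vancomycin samples were far above and the cisplatin samples below the controls. It rose by 3.33 ± 0.24 with vancomycin (adjusted p = 4.32e-11). The value with cisplatin, -1.10 ± 0.44 (adjusted p = 0.0384), was not called once any 1 of the 6 samples was left out (adjusted p 0.06 to 0.132). CMPK2 had 2.18, 2.89 and 1.91 CPM in the control samples, 0.666, 0.862 and 1.59 with cisplatin and 4.44, 5.06 and 4.37 with vancomycin. The 3 groups did not overlap, with log2 fold changes of -1.15 ± 0.35 with cisplatin (adjusted p = 0.00851) and 0.94 ± 0.25 with vancomycin (adjusted p = 0.00208). The cisplatin call was lost without control replicate 2 (adjusted p 0.0024 to 0.0518 over the 6 samples left out).

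The membrane restriction factors hold back virions at the cell's membranes. Vancomycin up-regulated all 4. BST2 encodes tetherin, which keeps budding virions on the cell surface. It had 93.5, 109 and 114 CPM in the control samples, 104, 92.6 and 59.3 with iohexol, 104, 104 and 102 with cisplatin and 249.8, 315 and 290.3 with vancomycin. The vancomycin samples were above all others, and the iohexol and cisplatin samples overlapped the controls. The increase was 1.39 ± 0.10 (adjusted p = 1.99e-11) with vancomycin, and the other tests gave -0.29 ± 0.17 and -0.03 ± 0.07. Without control replicate 1 the value for cisplatin, -0.12, was called (adjusted p 0.0474 to 0.915).

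IFITM3, which blocks the fusion of virions in endosomes, had 13.3, 15.7 and 14.6 CPM in the control samples, 10.0, 7.42 and 7.28 with iohexol, 21.0, 22.8 and 24.1 with cisplatin and 48.6, 53.7 and 57.6 with vancomycin. The 4 groups did not overlap. IFITM3 fell by 0.80 on the log2 scale (SE 0.16, adjusted p = 0.00403) with iohexol and rose by 0.63 ± 0.11 (adjusted p = 7.76e-05) with cisplatin and 1.83 ± 0.12 (adjusted p = 3.26e-12) with vancomycin. IFITM1, found mainly at the cell surface, had 4.57, 3.64 and 5.06 CPM in the control samples and 15.1, 20.1 and 19.4 with vancomycin (2.00 ± 0.17, adjusted p = 4.55e-10). IFITM2 had 4, 1 and 6 counts in the control samples and 13, 23 and 29 with vancomycin (2.41 ± 0.55, adjusted p = 0.000601). It passed the filter on low counts only in the comparison with vancomycin, where it was high. Its p-value is therefore no support beyond the counts. These 3 genes share 36.4% to 42.7% of their sequence with other genes, each other above all, and IFITM1 and IFITM2 overlap, so the split of reads between them is uncertain.

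ISG15 is a ubiquitin-like protein that is secreted and also attached to other proteins, HERC5 is the ligase that attaches it, and USP18 removes it and restrains the interferon receptor. The CPM of ISG15 were 26.5, 39.5 and 31.4 in the control samples, 51.3, 50.3 and 36.9 with iohexol, 84.6, 92.1 and 97.2 with cisplatin and 216, 267 and 235 with vancomycin. Only the iohexol samples overlapped the controls. Its log2 fold changes were 0.53 ± 0.16 (adjusted p = 0.0368), 1.49 ± 0.11 (adjusted p = 1.98e-09) and 2.83 ± 0.12 (adjusted p = 1.97e-15). The first was not called without control replicate 1 or 3 or iohexol replicate 1 or 2 (adjusted p 0.000432 to 0.132). HERC5 had 34.8, 32.6 and 31.1 CPM in the control group, 60.2, 52.6 and 65.9 with iohexol, 29.9, 27.6 and 28.5 with cisplatin and 85.3, 95.1 and 78.8 with vancomycin. It rose with iohexol (0.88 ± 0.11, adjusted p = 0.000171) and vancomycin (1.35 ± 0.10, adjusted p = 7.79e-11), and the cisplatin samples, all below the controls, gave -0.20 ± 0.09, which was called only without control replicate 3 (adjusted p 0.0358 to 0.208).

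HERC6, a related ligase next to HERC5 on chromosome 4, had a different level in every group. Its CPM were 17.9, 19.4 and 19.3 in the control samples, 24.9, 21.5 and 25.7 with iohexol, 9.15, 8.49 and 8.92 with cisplatin and 38.2, 34.7 and 34.7 with vancomycin. The 4 groups did not overlap. Cisplatin lowered it by -1.09 ± 0.11 (adjusted p = 2.5e-07) and vancomycin raised it by 0.88 ± 0.11 (adjusted p = 3.84e-07). The smaller rise with iohexol (0.36 ± 0.12, adjusted p = 0.0474) was not called without any 1 of the 6 samples (adjusted p 0.0577 to 0.146). USP18 changed little, with means of 8.03 ± 0.79 CPM in the control group and 11.2 ± 1.56 with vancomycin (0.43 ± 0.16, adjusted p = 0.0226). That call was lost without control replicate 1 or 2 or vancomycin replicate 1 or 2 (adjusted p 0.00999 to 0.0856), and 30.5% of its sequence is shared, mostly with USP41.

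PARP9, DTX3L and PARP14 lie near one another on chromosome 3 and encode proteins that add ADP-ribose or ubiquitin to proteins. PARP14 was called with vancomycin. It had 151, 145 and 144 CPM in the control samples, 177, 194 and 220.2 with iohexol, 140.4, 131 and 129 with cisplatin and 266, 209 and 246 with vancomycin. The iohexol and vancomycin samples were above and the cisplatin samples below the controls. It rose by 0.44 ± 0.09 with iohexol (adjusted p = 0.00609) and 0.67 ± 0.10 with vancomycin (adjusted p = 1.87e-06). The iohexol call was lost without control replicate 2 (adjusted p 0.00257 to 0.0536), and the value with cisplatin, -0.14 ± 0.06, was called without control replicate 1 (adjusted p 0.0393 to 0.259). DTX3L and PARP9 overlap by 217 exon bases on opposite strands, and their levels differed little between groups, from 92.1 ± 12.9 to 118 ± 2.83 CPM for DTX3L and from 35.5 ± 1.20 to 44.3 ± 0.845 CPM for PARP9. The vancomycin samples of PARP9, at 43.9, 43.6 and 45.2 CPM, lay above the other 9, whose highest was 42.4. Its log2 fold change with vancomycin, 0.20 ± 0.10, was not called (adjusted p = 0.103), but it was called in the fit of all 4 groups (0.24, adjusted p = 0.0281). The call of DTX3L with cisplatin (0.17 ± 0.07, adjusted p = 0.0393) was lost in 5 of the 6 samples left out, all but control replicate 1 (adjusted p 0.000299 to 0.18).

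All 5 IFI genes were up-regulated by vancomycin. IFI6, a small hydrophobic membrane protein, had 6.60, 8.41 and 8.62 CPM in the control samples, 11.4, 11.3 and 8.48 with iohexol, 18.2, 17.4 and 18.7 with cisplatin and 47.2, 61.2 and 56.1 with vancomycin. The cisplatin and vancomycin samples were above the controls, by 1.20 ± 0.13 (adjusted p = 3.03e-07) and 2.75 ± 0.13 (adjusted p = 3.01e-14). IFI44L had 9.00, 8.60 and 8.02 CPM in the control samples, 4.70, 6.39 and 6.68 with iohexol, 4.24, 4.31 and 4.78 with cisplatin and 39.8, 39.1 and 39.7 with vancomycin. It was below the controls in every iohexol and cisplatin sample and above in every vancomycin sample. The changes were -0.94 ± 0.15 with cisplatin (adjusted p = 4.7e-05) and 2.17 ± 0.12 with vancomycin (adjusted p = 2.96e-13), and the value with iohexol, -0.51 ± 0.17, was called without iohexol replicate 3 (adjusted p 0.0233 to 0.19).

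IFI44, the neighbour of IFI44L on chromosome 1, had 14.4, 14.2 and 12.5 CPM in the control samples, 16.9, 15.4 and 19.4 with iohexol, 11.1, 12.2 and 9.98 with cisplatin and 49.1, 67.3 and 59.5 with vancomycin. It rose by 2.05 ± 0.13 with vancomycin (adjusted p = 1.55e-12). The small decrease with cisplatin (-0.30 ± 0.12, adjusted p = 0.0455) was lost without control replicate 1 or 2 or cisplatin replicate 1 or 3 (adjusted p 0.0236 to 0.197). IFI27, of the same family as IFI6, went from 1.02, 1.25 and 2.37 CPM in the control samples to 5.13, 4.32 and 4.56 with vancomycin (1.54 ± 0.29, adjusted p = 7.14e-05). IFI35 rose from 13.0 ± 1.92 to 25.04 ± 3.41 CPM with vancomycin (0.90 ± 0.14) and to 17.2 ± 1.33 CPM with cisplatin (0.40 ± 0.12), the latter not called without cisplatin replicate 3 (adjusted p 0.00661 to 0.0553).

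SAMD9 and SAMD9L, neighbouring genes on chromosome 7 for proteins that restrict poxviruses, went apart. SAMD9L had 2.69, 2.76 and 1.38 CPM in the control samples, 2.28, 2.75 and 4.21 with iohexol, 1.51, 1.05 and 1.12 with cisplatin and 10.4, 10.5 and 8.19 with vancomycin. The vancomycin samples were above all others, by 2.05 ± 0.23 against the control group (adjusted p = 5.15e-08). The cisplatin samples overlapped the controls, and their call (-0.89 ± 0.33, adjusted p = 0.0292) was lost without control replicate 1 or 2 or cisplatin replicate 2 or 3 (adjusted p 0.00462 to 0.124). SAMD9 had 13.8, 9.98 and 9.87 CPM in the control samples, 11.1, 16.0 and 18.7 with iohexol, 11.4, 11.6 and 13.3 with cisplatin and 16.8, 15.5 and 11.3 with vancomycin. All groups overlapped, and no drug was called. Its value with vancomycin, 0.34 ± 0.17 (adjusted p = 0.0854), was called without control replicate 1 or vancomycin replicate 3 (adjusted p 0.0165 to 0.315), and that with iohexol, 0.47 ± 0.20, without control or iohexol replicate 1 (adjusted p 0.0381 to 0.333).

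Of the other ISGs, TRIM22, a ubiquitin ligase with antiviral activity, had 2, 3 and 7 counts in the control samples, 15, 15 and 12 with iohexol, 1, 1 and 6 with cisplatin and 32, 79 and 52 with vancomycin. It rose by 3.63 ± 0.48 with vancomycin (adjusted p = 6.11e-07) and by 1.79 ± 0.50 with iohexol (adjusted p = 0.0256). The latter was not called without control replicate 1 or 2 or iohexol replicate 1 or 2 (adjusted p 0.0225 to 0.121). EPSTI1 had 9, 6 and 5 counts in the control samples and 32, 28 and 47 with vancomycin (2.28 ± 0.41, adjusted p = 4.77e-05). TRIM22 and EPSTI1 passed the filter on low counts only through the drug samples, where they were high. Their p-values are therefore no support beyond the counts. PLSCR1, a phospholipid scramblase, had 41.7, 48.0 and 38.8 CPM in the control samples and 88.9, 88.7 and 79.0 with vancomycin (0.95 ± 0.10, adjusted p = 2.83e-08). Its smaller rise with cisplatin (0.29 ± 0.09) was lost without control replicate 3 (adjusted p 0.00332 to 0.0515). SP100, a scaffold of nuclear bodies, rose with vancomycin from 45.1 ± 4.34 to 66.2 ± 4.37 CPM (0.51 ± 0.10, adjusted p = 0.000172). XAF1 had 1 count in 1 cisplatin sample and 0 in the other 11, where 3 counts correspond to 0.177 to 0.218 CPM.

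Neighbouring ISGs gave a comparison within each sample that no scaling between samples enters, the ratio of their counts. The 7 pairs were picked by no fixed rule from the ISGs that lie near one another. Several, such as IFIT2 and IFIT5 (105310 bases apart), set a gene called with vancomycin against a gene that was not. Separate ranges in such pairs restate the tests above and are no further support. The ratio of IFIT2 to IFIT5 lay between 0.684 and 0.927 in the control group. It was 1.07 to 1.21 under cisplatin, 1.67 to 2.22 under iohexol and 3.11 to 3.68 under vancomycin. The ratio of OAS1 to OAS3 was 0.0251 to 0.0472 in the control samples and 0.172 to 0.223 with vancomycin, and that of SAMD9L to SAMD9 was 0.14 to 0.277 and 0.623 to 0.723. RSAD2 to CMPK2 went from 0.283 to 0.467 in the control samples to 1.81 to 2.25 with vancomycin. PARP14 to DTX3L was 1.34 to 1.45 in the control samples and 2.08 to 2.74 with vancomycin. The ranges of these 5 pairs did not overlap between the control and vancomycin samples. IFI44L to IFI44 did overlap, at 0.606 to 0.642 in the control samples and 0.581 to 0.81 with vancomycin (exact permutation p = 0.6). For HERC5 to HERC6 the ratio was highest with cisplatin, at 3.19 to 3.27 against 1.61 to 1.94 in the control samples. With 3 samples against 3, the exact two-sided permutation test gives no p below 0.1, which these differences other than that of IFI44L to IFI44 reached (adjusted p = 0.131 over the 21 tests of 7 pairs).

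The drugs were also compared with each other in 1 fit of all 12 samples. Against iohexol, vancomycin raised 34 ISGs and lowered 0, where 29.0% and 27.6% of all genes were called. Against cisplatin, it also raised 34 and lowered 0, where 34.7% and 30.0% of all genes were called, and with library size alone these were 29 and 4. At an unadjusted p under 0.05, 0 ISGs were lower with vancomycin than with iohexol and 1, DTX3L, was lower than with cisplatin. DESeq2 called 0 and 1. Cisplatin against iohexol raised 11 ISGs and lowered 16, where 26.0% and 27.9% of all genes were called. The ISGs with the largest differences between cisplatin and vancomycin were RSAD2 (log2 difference 4.46 ± 0.31), TRIM22 (4.38 ± 0.55) and IFI44L (3.15 ± 0.13), all higher with vancomycin. IFITM2, IFITM3, IFITM1 and IRF7 were higher with cisplatin than with iohexol by more than 2-fold, and TRIM22, EPSTI1, HERC6, SAMD9L, RSAD2, CMPK2 and HERC5 were lower by more than 2-fold. IFITM2 had only 8, 13 and 6 counts with cisplatin and 1, 0 and 1 with iohexol, and passed the filter of this fit through the vancomycin samples. TRIM22 and EPSTI1 passed it through the iohexol and vancomycin samples.

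In all, 7 ISGs were up-regulated by each of the 3 drugs, namely STAT2, IFIT1, IFIT2, IFIT3, OASL, ISG20 and ISG15. These were 18.9% of the 37 ISGs tested with every drug, where 1.62% of the 15026 genes so tested were higher with all 3. The comparisons share the control samples, which ties the calls to one another. With 1 of 6 samples left out, the iohexol call of ISG15 was lost in 4 fits, and those of OASL and ISG20 in 2 each. Another 11 were called with vancomycin and with no other drug. They were 27.5% of the 40 ISGs tested with vancomycin, where 9.73% of all 15819 genes tested were higher in this way. Of the 11, EPSTI1 could not be tested with cisplatin and IFITM2 with neither of the others. Also among the 11, DHX58, EPSTI1 and OAS1 were called with iohexol as well once iohexol replicate 3 was left out. In opposite directions by 2 drugs, 9 were called (24.3% of the 37, where 2859 of the 15026 genes so tested were): IFIH1, RSAD2, CMPK2, IFI44, IFI44L and SAMD9L were lower with cisplatin and higher with vancomycin, HERC6 was in addition higher with iohexol, and IRF1 and IFITM3 were lower with iohexol and higher with the other 2 drugs. Among these opposite calls, those of RSAD2, IFI44, SAMD9L, CMPK2 and IFIH1 with cisplatin were each lost in at least 1 fit with 1 sample left out. So were those of HERC6 and IRF1 with iohexol. IFIT5, PARP9 and SAMD9 were called with no drug.

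The genes upstream of the ISGs were looked at by lists. Counts of the 10 interferon genes looked at (types I, II and III) never exceeded 8 in a sample, 3 of them had 0 counts in all 12 samples, and none could be tested. IFNB1 had 0 counts over the 3 control samples, 1 with iohexol, 0 with cisplatin and 4 with vancomycin, these in 1 sample (IFNB1, IFNAR2, IFNGR1, JAK1, SOCS1 and PTPN2 are named here after their values were seen). Of the 6 receptor genes, vancomycin raised 1 and lowered 1, cisplatin raised 1 and lowered 2, and iohexol raised 0 and lowered 1. IFNAR2, a subunit of the type I receptor, was lower with iohexol (-0.87 ± 0.21), cisplatin (-0.72 ± 0.18) and vancomycin (-0.55 ± 0.20). IFNGR1 of the interferon gamma receptor was higher with vancomycin (0.76 ± 0.10).

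These lists are short, and their counts stand beside 29.0% of all genes called higher and 28.8% lower with vancomycin, 29.2% and 30.6% with cisplatin and 11.2% and 9.77% with iohexol. Among 7 kinases and other STAT and IRF genes, vancomycin raised 2 and lowered 2, cisplatin raised 3 and lowered 3, and iohexol lowered 2. JAK1, the kinase of the receptor, was lower with all 3 drugs (-0.43 ± 0.09, -0.78 ± 0.06 and -0.58 ± 0.09 with iohexol, cisplatin and vancomycin). Of 13 sensors and adapters (11 tested), vancomycin raised 4 and lowered 2, with IFI16, a DNA sensor, at 1.69 ± 0.11, and cisplatin raised 4 and lowered 4, with TLR3 at -1.47 ± 0.30. Iohexol raised and lowered 0 of them. Of 5 feedback inhibitors, vancomycin raised 2 and lowered 0, cisplatin raised 1 and lowered 1 (PTPN2, -0.43 ± 0.10), and iohexol raised 1. SOCS3 rose more than 2-fold with vancomycin (1.34 ± 0.13). SOCS1, which blocks the JAK kinases, had CPM of 5.81, 5.84 and 5.79 in the control samples and 5.32, 5.81 and 5.36 with vancomycin, and means of 10.8 with iohexol and 9.66 with cisplatin. It rose with iohexol (0.91 ± 0.15) and cisplatin (0.73 ± 0.14), and the value with vancomycin, -0.12 ± 0.18, was not called.

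A further 31 ISGs outside the 43 had median log2 fold changes of 0.51 with vancomycin, 0.03 with cisplatin and -0.11 with iohexol over those tested. Vancomycin raised 16 of them and lowered 2 (25 tested), where 29.0% of all genes were called higher and 28.8% lower. Cisplatin raised 7 and lowered 8 (23 tested), where 29.2% and 30.6% were called, and iohexol raised 3 and lowered 4 (24 tested), where 11.2% and 9.77% were. The DEGs with vancomycin were GBP2 (2.40 ± 0.15) and GBP1 (1.24 ± 0.12), GTPases that attack vacuoles of pathogens, ETV7 (2.40 ± 0.43), APOL1 (1.89 ± 0.09), BATF2 (1.61 ± 0.46) and UBE2L6 (1.17 ± 0.10), the conjugating enzyme of ISG15. GBP2 rose with iohexol as well (1.43 ± 0.16), and the only DEG with cisplatin was CD274, which encodes PD-L1 (1.55 ± 0.22).

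Total counts were 14057282 to 18177109 per sample. The tubular label held for PAX8 and GGT1, at 372 and 189.5 CPM in the control group, while LRP2, CUBN, AQP1, SLC34A1, SLC22A6 and HNF4A were under 1 CPM there. Epithelial KRT8, KRT18 and EPCAM were detected and CDH1 was not above 0.401 CPM in any group mean. Markers of plasmacytoid dendritic cells, the main interferon producers of blood, had a summed level of 0.460 to 0.878 CPM in the control samples and 0.810 to 2.09 with vancomycin, with CLEC4C and LILRA4 at 0 in all samples. Blood and immune markers summed to 0.753 to 1.02 and 1.97 to 3.69 CPM, mostly CD14, with MS4A1 at 0 and PTPRC at no more than 5 counts. Fibroblast markers summed to 114 to 128 CPM in the control samples and 239.8 to 276 with vancomycin, and endothelial markers to 1.44 to 1.64 and at most 0.688. Their part in the rise of the ISGs was not tested.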

How the data were processed

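RNA of 12 samples of HK-2 cells was sequenced after poly(A) selection with an NEBNext Ultra kit, which does not mark strand. The authors deposited raw counts of reads per gene for 58735 genes, without normalization, together with gene lengths. The submitters' processing notes name CASAVA 1.8, fastp, HISAT2 2.0.5, featureCounts 1.5.0-p3 and DESeq2 1.20.0. The genome build and annotation release are not given in the sources used here. The table's columns were matched to samples by the sample number in the labels. Intervals and the floor of 3 counts cover counting error only.

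Fold changes on the log2 scale came from these counts through edgeR 4.0.16, run in R 4.3.3 (TMM factors, filterByExpr with a minimum of 10 and a total of 15 counts, quasi-likelihood test) over all genes, for each drug with the 3 control samples, and between drugs in a fit of all 12 samples. The p-values were adjusted by Benjamini-Hochberg over all genes tested, with a threshold of 0.05. The standard error was the log2 fold change divided by the square root of F. CPM used the TMM factors of the 12-sample fit. The steps were tested on simulated counts. Reads shared between genes were assessed from 31-base sequences of the transcripts of a GENCODE annotation of GRCh38.

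The ISGs were all described by role. Values per sample are given for those with a log2 fold change beyond 1 or -1 with any drug and for the one with the most counts in each role. The members and the lists of other genes were chosen with earlier results of these data known. A few genes of those lists are counted and not reported here by name. Alternatives were DESeq2 1.42.0, limma-voom (limma 3.58.1), other scalings and filters, the replicate number as a block, and leaving out each sample. Promoters came from RefSeq (GRCh38.p14). Figures were drawn with matplotlib 3.10.9.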

Additional observations from a re-analysis of the deposited data

Results flagged for a closer look

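For 9 ISGs, 2 drugs were called in opposite directions against the shared control samples. The contrast between the drugs was called too (edgeR's quasi-likelihood test in the 12-sample fit, adjusted over all genes tested). Opposite calls were made for 24.3% of the 37 ISGs tested with every drug, near the 19% of the 15026 genes so tested. Many of these calls were lost on leaving out 1 of 6 samples. With cisplatin, RSAD2 was lost in 6 of these fits, IFI44 and SAMD9L in 4 each, and CMPK2 and IFIH1 in 1 each. With iohexol, HERC6 was lost in 6 and IRF1 in 4. The 9 were picked by their calls on these same samples, so the contrasts give the size of the difference and no further support. Vancomycin exceeded cisplatin by 4.46 on the log2 scale for RSAD2 (adjusted p = 1.25e-10), 3.15 for IFI44L (adjusted p = 1.21e-13), 2.97 for SAMD9L (adjusted p = 8.78e-09), 2.40 for IFI44 (adjusted p = 4.88e-12), 2.22 for IFIH1 (adjusted p = 1.53e-10), 2.14 for CMPK2 (adjusted p = 2.42e-06) and 2.02 for HERC6 (adjusted p = 4.77e-12). HERC6 was lower with cisplatin than with iohexol by -1.44 (adjusted p = 1.61e-09). IRF1 was higher than with iohexol by 0.93 with cisplatin (adjusted p = 2.03e-06) and by 0.95 with vancomycin (adjusted p = 1.48e-06), and IFITM3 by 1.46 (adjusted p = 1.41e-08) and 2.69 (adjusted p = 1.25e-12). With 3 samples a group, no test for samples far from the rest of their group was made. The chi-square per degree of freedom between the counts of 2 samples describes their spread. It was 17.5 and 16.5 for iohexol replicate 3 against replicates 1 and 2, and 3.82 between replicates 1 and 2. Between samples of the other groups it was 3.24 to 10.8 (control), 2.34 to 2.66 (cisplatin) and 6.24 to 13.1 (vancomycin).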

How the results depend on the processing

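The count of ISGs higher with vancomycin was 34 to 37 with 1 sample left out, and that of ISGs lower was 0 under every alternative. ISGs higher with iohexol were 8 to 16 and lower 1 to 5 with 1 sample left out, the lower count being 1 without control replicate 2 or iohexol replicate 1 and 5 without iohexol replicate 3. At the unadjusted p these were 19 and 5, and the lower count was 6 with no filter, 5 in a fit of all 4 groups and 1 with library size only. ISGs higher with cisplatin were 12 to 14 and lower 3 to 7 with 1 sample left out, the lower count being 3 without control replicate 2 or cisplatin replicate 3, and 3 with library size only. Between drugs, with 1 sample left out, ISGs were 11 to 13 higher and 15 to 17 lower for cisplatin against iohexol, 32 to 34 and 0 for vancomycin against iohexol, and 34 to 36 and 0 to 1 for vancomycin against cisplatin, 1 being the value without vancomycin replicate 1. ISGs lower with vancomycin than with iohexol were 1 with library size only. Those lower with vancomycin than with cisplatin were 1 with DESeq2, 1 with RLE factors, 1 with a mean of at least 10 counts, 2 with only the 2 drugs fitted and 4 with library size only. Library size only turned the cisplatin values of OAS3 and BST2, which were not called with TMM factors, to 0.18 each, by the shift of the scaling. Both were then called higher (edgeR's quasi-likelihood test, adjusted p = 0.0429 and 0.0364). Samples with the same replicate number showed no shared deviation. Their deviations had correlations of -0.184 to 0.103, and their mean was -0.0209, against 0.0106 for other numbers. Whether samples with the same number were handled together is not stated, and these values cannot decide it. With the replicate block, ISGs lower with iohexol were 1 and no other count moved by over 1.5 times. The other causes were not tested. Counts under about 20 per sample (MX1, RSAD2, TRIM22, EPSTI1, IFITM2) limit what could be seen with cisplatin and iohexol.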
